A study of Saccharomyces cerevisiae with 15 samples.

Results

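The genes described here encode 60 assembly factors of the large (60S) ribosomal subunit of budding yeast, *Saccharomyces cerevisiae*. They were taken by gene symbol from the stranded RNA-seq gene table, in which they are 60 of 5712 features. The symbol *RRS1* stood on 2 rows, and the row of *YOR294W*, which bears that name in RefSeq, was kept. Transcripts were measured in 15 libraries, 3 independent cultures of each of 5 strains grown in rich YPAD medium to mid-log phase. The strains compared were the wild type HTABWT (WT), *jhd2Δ* (YMC70, *jhd2* replaced by KanMX), *set1Δ* (YMC64, *set1* replaced by KanMX), a strain with Flag-tagged *SET1* driven by the *ADH1* promoter (YMC42, *SET1* overexpression) and one with the dominant hyperactive *SET1-G990E* allele driven in the same way (YMC43, *SET1-G990E* overexpression). Both overexpression strains keep their own *SET1* gene. Their construct was integrated at the *URA3* locus with a *URA3* marker, which the strain list does not give for WT or the deletion strains. Every strain, the control included, is Mat a *lys2-128delta ura3-52* with a *his3* deletion (its allele number differs between the labels and the study's strain list), lacks both chromosomal histone H2A-H2B loci (*hta1-htb1* and *hta2-htb2*) and carries *HTA1-HTB1* on a *CEN HIS3* plasmid. Each genotype is represented by 1 strain, so the 3 cultures give the spread between cultures of that strain. Set1 is the enzyme that methylates lysine 4 of histone H3, and Jhd2 removes that methyl mark.

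The large subunit is built on the 27S precursor rRNA in the nucleolus, matures in the nucleoplasm and is finished in the cytoplasm. Many factors bind and leave on the way: RNA helicases that remodel the early RNA, scaffold proteins that hold the rRNA domains together, GTPases and AAA ATPases that drive release steps, and export and cytoplasmic factors. In yeast their genes belong to the ribosome biogenesis (Ribi) regulon, which is transcribed at a high rate in fast growth and shut down in stress, and whose promoters often hold the PAC and RRPE motifs. The 60 genes were read in the order of assembly: 13 act in the early nucleolar particles, 19 are A3 factors and parts of the nucleolar scaffold, 12 act in 27SB processing and 5S RNP docking, 9 in nucleoplasmic maturation and 7 in export and cytoplasmic maturation.

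The labels were checked first on the targeted genes. *JHD2* had 0 to 2 raw sense counts in the *jhd2Δ* libraries against 169 to 198 in WT, and *SET1* had 33 to 46 in *set1Δ* against 822 to 908 in WT. With overexpression, *SET1* reached 35966 to 42631 counts, and with the *SET1-G990E* allele 40284 to 42512. The libraries held 6903094 to 8947346 sense counts each, with 72664 to 106762 on the antisense strand. Values below are counts normalized by TMM to a common library size. They are shares of a library, so a change in the amount of RNA per cell cannot be told apart from a change in its makeup.

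Sense transcripts of large-subunit assembly genes were higher in all 4 mutant strains and lower in none. A gene was called when its Benjamini-Hochberg adjusted p over the 5619 features tested (edgeR's quasi-likelihood test) was under 0.05 and its change was at least 1.5-fold. Of the 60 members, all of which passed the filter on low counts, 42 rose in *jhd2Δ*, where 6.94% of all features were called higher. In *set1Δ* 20 rose, beside 5.87% of all features. With *SET1* overexpression 22 rose (3.81% of all features), and with *SET1-G990E* overexpression 40 did (6.66%). The medians of the members' log2 fold changes were 0.76, 0.50, 0.52 and 0.70 in that order, while the medians over all features lay between -0.011 and 0.001. No member was called lower by edgeR in any of the 4 strains, where 5.27%, 2.71%, 3.88% and 5.32% of all features were, and 0 were lower at an unadjusted p under 0.05 or called lower by DESeq2.

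Most of the uncalled members were higher than WT by the adjusted p, with changes under the fold limit. On the adjusted p alone, at any fold, 58 members were higher in *jhd2Δ* (21.5% of all features), 50 in *set1Δ* (22.1%), 56 with *SET1* overexpression (18%) and 58 with *SET1-G990E* overexpression (22.2%). All 3 mutant libraries lay above all 3 WT libraries for 57 members in *jhd2Δ*, 49 in *set1Δ*, 56 with *SET1* and 57 with *SET1-G990E* overexpression, against 24.5%, 25.2%, 24.0% and 25.4% of all features. These 4 comparisons share the WT libraries. When the change was tested against 1.5-fold instead of against 0 (glmTreat), 27, 5, 8 and 25 members were higher, so the counts depend strongly on how the fold limit enters the test.

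**Figure D1:**
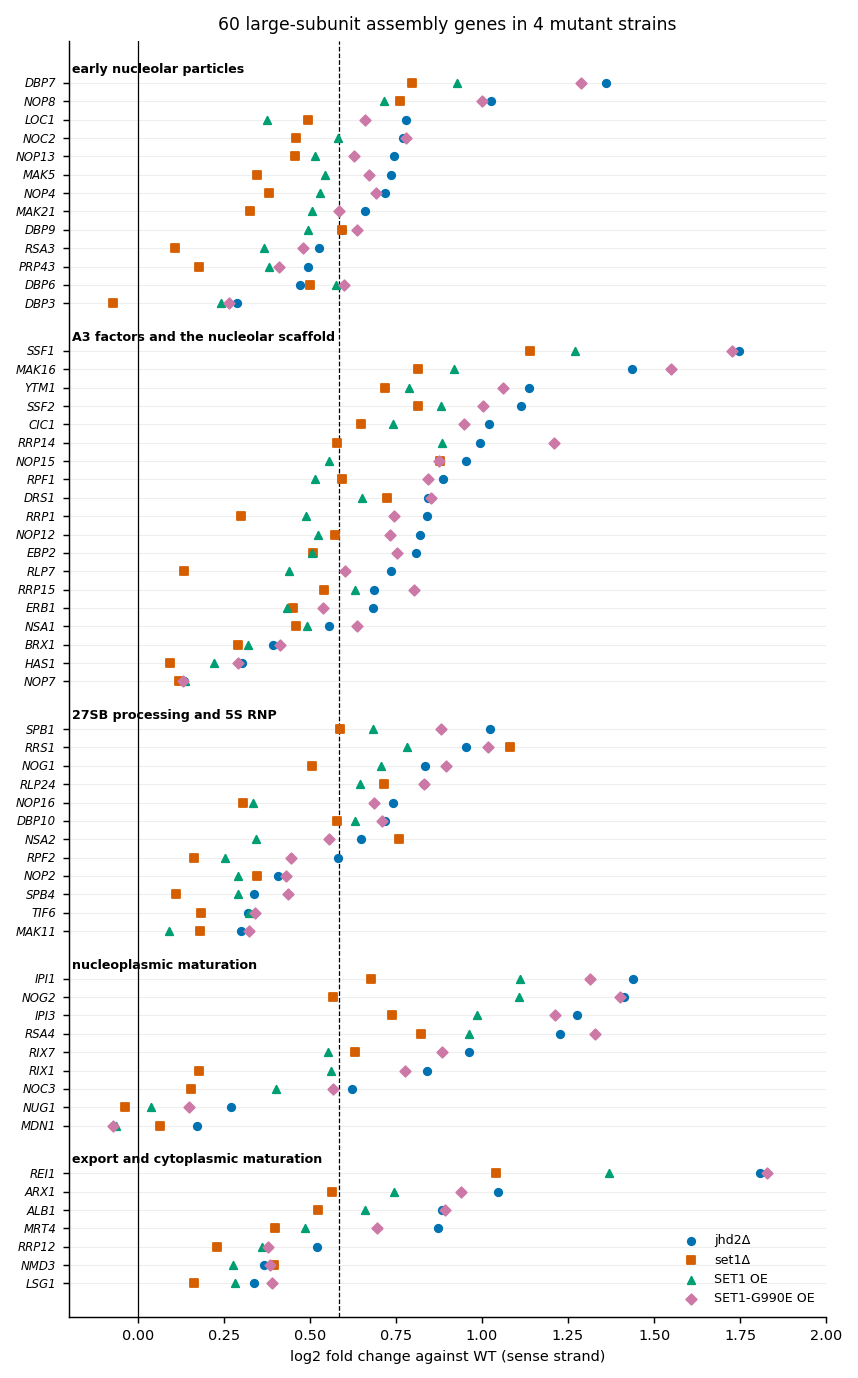
Log2 fold change of the sense transcript against WT (x axis) for each of the 60 members (rows, grouped by assembly step and ordered by the *jhd2Δ* value), with a symbol for each mutant strain. The dashed line marks the 1.5-fold limit, and most symbols lie to the right of 0, with *REI1*, *SSF1* and *MAK16* farthest and *NOP7* and *MDN1* close to it.

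Across the strains, 15 members rose in all 4: *DBP7*, *NOP8*, *YTM1*, *CIC1*, *DRS1*, *SSF1*, *SSF2*, *MAK16*, *SPB1*, *RLP24*, *RRS1*, *IPI1*, *IPI3*, *RSA4* and *REI1*. That is 25% of the members, and 1.82% of all features tested rose in all 4. A further 12 rose only in *jhd2Δ* and with *SET1-G990E* overexpression, 7 in every strain except *set1Δ*, and 4 in every strain except *SET1* overexpression. *NSA2* was the 1 member called in the 2 deletion strains alone, *MAK21*, *ERB1* and *NOC3* in *jhd2Δ* alone, and *DBP6* and *NSA1* with *SET1-G990E* overexpression alone. The remaining 16 were called in none of the strains. These sets describe the calls, and a call in one strain and not in another is no test of a difference.

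The promoters of the members share sequence features. The members were chosen with earlier results of these data known, so the shares below are a description and no independent test. Matches were sought on both strands in the 250 bases before each start codon, in the RefSeq genome of the same build (sacCer3) as the files. The core of the PAC motif, GATGAG, which the repressors Dot6 and Tod6 bind, was found before 54 of the 60 members (90%) and before 16.6% of all 5529 protein-coding genes tested. The core of RRPE, AAAATTTT, the element that Stb3 binds, was found before 48 members (80%) and 9.08% of the genes tested. Both stood before 43 members (71.7%, against 4.40%) and neither before 1, *MAK11*. Other assembly genes share this trait. Of 71 small-subunit assembly genes 85.9% had the PAC core, 70.4% the RRPE core and 63.4% both. Of 26 other large-subunit assembly genes 76.9%, 53.8% and 42.3% did. The 2 cores cannot overlap each other, but copies of the PAC core can, as in GATGAGATGAG. The promoter stretches of 8 members are shown, from base -190 to base -71 before the start codon and read in the direction of the gene, with every PAC and RRPE core in capitals (CTCATC is the PAC core on the other strand). *REI1* and *SSF1* had the largest rises, *NOG2* and *IPI1* were among the members that differed between the 2 deletion strains, *RRS1* led its step in *set1Δ*, *NOP8* carries antisense RNA, and *NOP7* and *MAK11* are among the least changed:
REI1 chrII:739651-739770 (+): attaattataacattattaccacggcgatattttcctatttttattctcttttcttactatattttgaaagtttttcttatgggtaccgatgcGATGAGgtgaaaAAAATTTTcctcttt
SSF1 chrVIII:229145-229264 (+): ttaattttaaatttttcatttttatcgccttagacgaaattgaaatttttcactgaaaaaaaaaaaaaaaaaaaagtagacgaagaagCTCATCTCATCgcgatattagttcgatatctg
NOG2 chrXIV:723183-723302 (-): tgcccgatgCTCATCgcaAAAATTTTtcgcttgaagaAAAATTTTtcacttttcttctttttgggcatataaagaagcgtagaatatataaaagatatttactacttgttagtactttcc
IPI1 chrVIII:276574-276693 (+): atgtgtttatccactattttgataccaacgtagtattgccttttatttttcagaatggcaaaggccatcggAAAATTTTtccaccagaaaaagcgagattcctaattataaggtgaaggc
RRS1 chrXV:868150-868269 (+): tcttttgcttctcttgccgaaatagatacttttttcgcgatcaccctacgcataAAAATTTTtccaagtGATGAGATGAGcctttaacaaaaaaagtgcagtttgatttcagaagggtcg
NOP8 chrXV:52908-53027 (+): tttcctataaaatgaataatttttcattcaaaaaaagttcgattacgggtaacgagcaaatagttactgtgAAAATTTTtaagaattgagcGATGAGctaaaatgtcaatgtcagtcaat
NOP7 chrVII:695227-695346 (+): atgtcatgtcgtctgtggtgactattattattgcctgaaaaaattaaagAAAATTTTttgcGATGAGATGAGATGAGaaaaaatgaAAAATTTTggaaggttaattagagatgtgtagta
MAK11 chrXI:398821-398940 (-): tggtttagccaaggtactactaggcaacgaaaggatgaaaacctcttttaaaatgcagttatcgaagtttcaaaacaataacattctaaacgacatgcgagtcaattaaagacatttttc

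Members with and without each core were found among both the called and the uncalled genes. *NOP7*, with 3 overlapping PAC cores and 2 RRPE cores, was called in no strain, while *SSF1* has PAC cores but no RRPE core and *IPI1* has an RRPE core but no PAC core. Of the 43 members with both cores, 30 rose in *jhd2Δ* (median log2 fold change 0.77), as did 8 of the 11 with PAC alone (median 0.74) and 4 of the 5 with RRPE alone (*IPI1*, *IPI3*, *RIX1*, *SPB1* and *NSA1*, median 1.02). In *set1Δ* the 3 classes gave 15, 2 and 3 calls. Outside the members, 200 genes with both cores had 38% called higher in *jhd2Δ* and 17% in *set1Δ*. The 664 with PAC alone had 16.3% and 11.4%, and the 254 with RRPE alone 7.09% and 4.72%. The 4351 genes with neither had 3.33% and 4.32%. The 200 include other ribosome assembly genes. The PAC core nearest to the start codon began at a median of -116 bases, and the RRPE core at -139. A match of these letters is a description of the window, not a bound site.

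**Figure D2:**
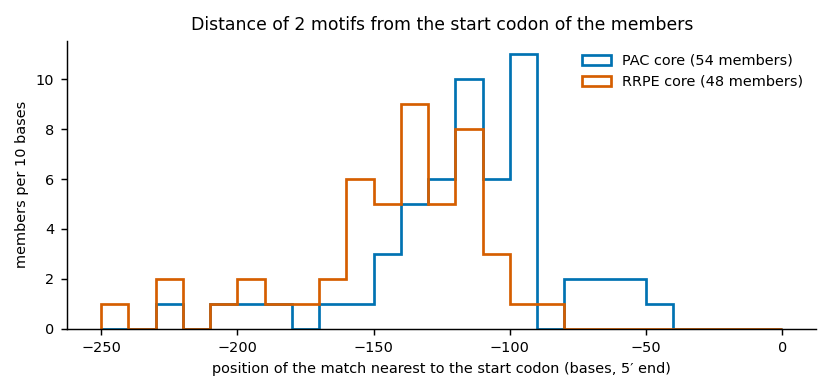
Number of members per 10 bases (y axis) by the position of the 5′ end of the match nearest to the start codon (x axis, bases before the start codon), for the PAC core in 54 members and the RRPE core in 48. The RRPE core lies farther out (median -139, all at -85 or beyond) than the PAC core (median -116).

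The early nucleolar particles hold the DEAD-box helicases *DBP3*, *DBP6*, *DBP7*, *DBP9* and *MAK5*, the DEAH-box helicase *PRP43*, the RNA-binding proteins *NOP4*, *NOP8*, *NOP13* and *LOC1*, the NOC proteins *NOC2* and *MAK21*, and *RSA3*. Of these 13, 9 rose in *jhd2Δ*, 3 in *set1Δ*, 2 with *SET1* overexpression and 9 with *SET1-G990E* overexpression. The largest rise in both deletion strains was that of *DBP7* (YKR024C, chromosome XI, 485144 to 487372, - strand), with normalized counts of 166, 205 and 208 in the 3 WT cultures. It had 503, 459 and 526 in *jhd2Δ*, 378, 284 and 343 in *set1Δ*, 359, 368 and 373 with *SET1* overexpression and 448, 494 and 471 with *SET1-G990E* overexpression. Every mutant culture stood above every WT culture, and *jhd2Δ* and *set1Δ* did not overlap either. The log2 fold change of *DBP7* was 1.36 ± 0.101 (SE, n = 3 against 3, edgeR adjusted p = 9.33e-09) in *jhd2Δ* and 0.80 ± 0.106 (edgeR adjusted p = 1.22e-05) in *set1Δ*. *NOP8* followed with log2 fold changes of 1.03 in *jhd2Δ*, 0.76 in *set1Δ*, 0.71 with *SET1* overexpression and 1.00 with *SET1-G990E* overexpression. The helicase gene *DBP3* had the smallest log2 fold change of the 13 in each strain, with counts of 2561, 2539 and 2358 in WT, 3087, 3024 and 2996 in *jhd2Δ* and 2577, 2305 and 2218 in *set1Δ*. Its *set1Δ* cultures overlapped WT (log2 fold change -0.071 ± 0.0602, edgeR adjusted p = 0.363), whereas its *jhd2Δ* cultures lay above WT by 0.29, under the fold limit.

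The second group holds the A3 factors, which act in trimming of the rRNA from cleavage site A3, and the proteins of the nucleolar scaffold. The A3 factors proper are *NOP7*, *ERB1*, *YTM1*, *CIC1*, *NOP15*, *RLP7* and *RRP1*, with the helicases *DRS1* and *HAS1* close by. *SSF1*, *SSF2*, *RPF1* and *BRX1* encode Brix-domain proteins, and *MAK16*, *NSA1*, *RPF1* and *RRP1* encode the parts of the Nsa1 particle. Of the 19 genes, 15 rose in *jhd2Δ*, 8 in *set1Δ*, 8 with *SET1* and 15 with *SET1-G990E* overexpression. *SSF1* (YHR066W, chromosome VIII, 229335 to 230696, + strand) led in both deletion strains, with 348, 295 and 256 in WT and 1126, 926 and 964 in *jhd2Δ*, 757, 539.6 and 683 in *set1Δ*, 739.5, 675 and 751 with *SET1* overexpression and 995, 1022 and 957 with *SET1-G990E* overexpression. No mutant culture of *SSF1* overlapped WT, and the log2 fold change was 1.75 ± 0.115 in *jhd2Δ* (edgeR adjusted p = 3.49e-09) and 1.14 ± 0.118 in *set1Δ* (edgeR adjusted p = 9.37e-07). Its paralog *SSF2* rose by 1.11 in *jhd2Δ*, 0.82 in *set1Δ*, 0.88 with *SET1* overexpression and 1.00 with *SET1-G990E* overexpression. Over 1362 coding bases the 2 genes are 92.1% identical, with the longest identical run at 92 bases, so reads may be shared between them and each value is uncertain. Without both, 40, 18, 20 and 38 of the other 58 members rose.

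*MAK16* (YAL025C, chromosome I, 100225 to 101145, - strand), which encodes a member of the Nsa1 particle, had 286, 263 and 234 in WT. In the mutants it had 664, 617 and 837 in *jhd2Δ*, 491, 393 and 492 in *set1Δ*, 435, 524 and 522 with *SET1* overexpression and 657, 941 and 692 with *SET1-G990E* overexpression. All 12 mutant cultures of *MAK16* lay above WT, with log2 fold changes of 1.44 in *jhd2Δ*, 0.81 in *set1Δ*, 0.92 with *SET1* overexpression and 1.55 with *SET1-G990E* overexpression. Its partners *RPF1* and *RRP1* rose in *jhd2Δ* by 0.89 and 0.84, and in *set1Δ* *RPF1* rose by 0.59 while *RRP1* had 0.30 and was not called. The *RPF1* call in *set1Δ*, at the fold limit, was lost without WT culture 3 or *set1Δ* culture 3. In the Nop7-Erb1-Ytm1 complex the 3 genes differed: *YTM1* rose in all 4 strains (by 1.14 in *jhd2Δ* and 0.72 in *set1Δ*), *ERB1* in *jhd2Δ* alone (0.68), and *NOP7* in none. *NOP7* (YGR103W, chromosome VII, 695417 to 697234, + strand) had 8085, 7118 and 6669 in WT, 8528, 7919.7 and 7576 in *jhd2Δ* and 8738, 7538 and 7512 in *set1Δ*. Its mutant cultures overlapped WT, with log2 fold changes between 0.12 and 0.14 and edgeR adjusted p between 0.168 and 0.224.

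**Figure D3:**
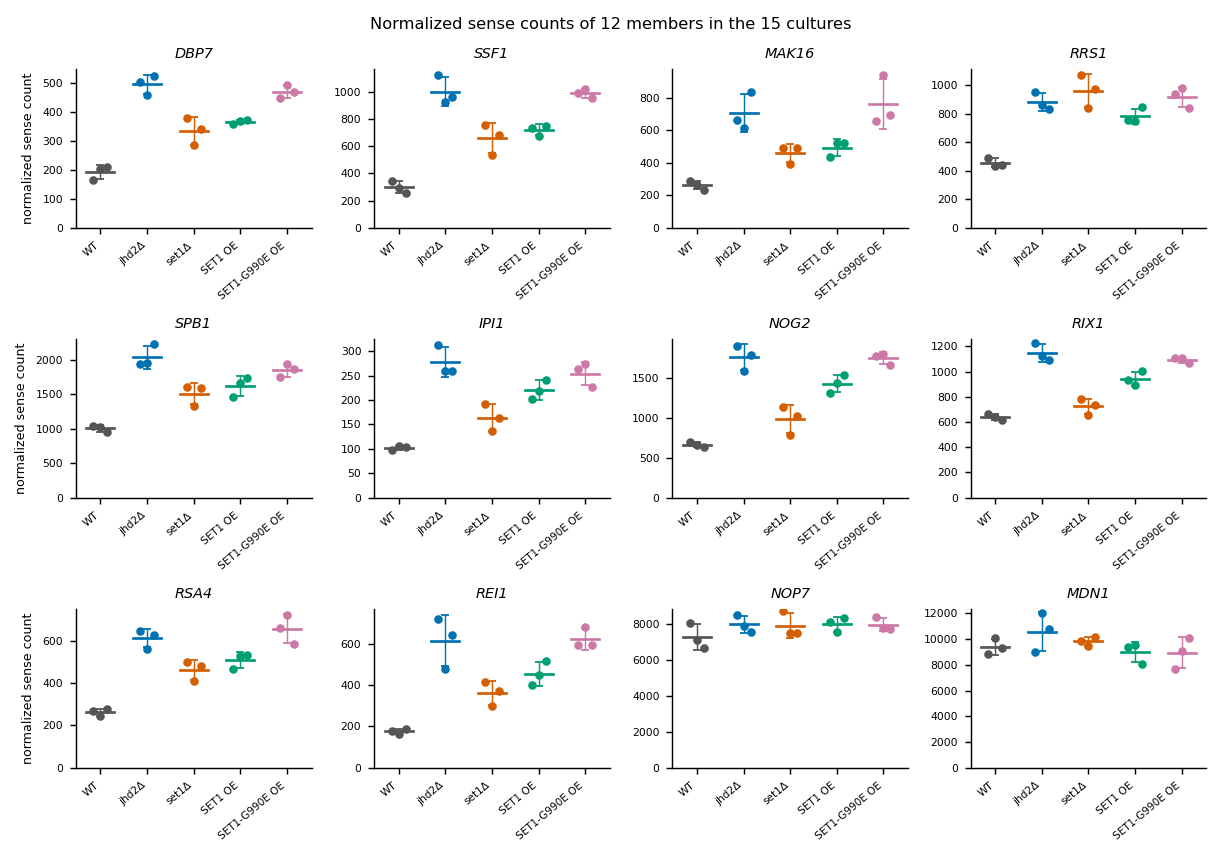
Normalized sense counts (y axis, from 0) of 12 members in the 3 cultures of each strain (points), with the mean (line) and SD (bar). *REI1*, *SSF1*, *MAK16*, *DBP7* and *RSA4* stand above WT in every mutant culture, *RIX1* and *NOG2* are low in *set1Δ* beside the other mutants, and *NOP7* and *MDN1* overlap WT.

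Processing of the 27SB precursor needs the B factors, among them the helicases *DBP10* and *SPB4*, the methyltransferases *NOP2* and *SPB1*, the GTPase *NOG1* and the ribosomal-protein-like *RLP24*, and *RPF2* with *RRS1* brings in the 5S RNP. Of the 12 genes of this step 7 rose in *jhd2Δ*, 4 in *set1Δ*, 5 with *SET1* overexpression and 6 with *SET1-G990E* overexpression. *SPB1* (YCL054W, chromosome III, 31449 to 33974, + strand) had the largest rise in *jhd2Δ*, from 1036, 1028 and 951 in WT to 1939.7, 1949 and 2235 (log2 fold change 1.02 ± 0.0822, edgeR adjusted p = 2.19e-08). In *set1Δ* it had 1607, 1331 and 1591, above WT by 0.59, which is at the fold limit. That call was lost without WT culture 3 (0.56), *set1Δ* culture 1 (0.54) or *set1Δ* culture 3 (0.55). *RRS1* (YOR294W, chromosome XV, 868340 to 868951, + strand) was the largest in *set1Δ*, with 1074, 841 and 974 in *set1Δ* beside 492, 436 and 438 in WT, and 955, 859 and 831 in *jhd2Δ*. It did not overlap WT in either strain, and the *set1Δ* rise was 1.08 ± 0.0911 (edgeR adjusted p = 8.63e-08) beside 0.95 ± 0.0908 in *jhd2Δ*. Its partner *RPF2* had 0.58 in *jhd2Δ*, 0.16 in *set1Δ*, 0.25 with *SET1* overexpression and 0.45 with *SET1-G990E* overexpression and was called in none. *MAK11* (YKL021C, chromosome XI, 397344 to 398750, - strand), a factor of the pre-60S particle, had the smallest mean absolute change of the step: its WT counts were 404, 517 and 431, its *jhd2Δ* counts 482, 559 and 625 and its *set1Δ* counts 488, 506 and 540.0, so that the groups overlapped. *TIF6*, which keeps immature 60S subunits from joining 40S, had log2 fold changes of 0.32 in *jhd2Δ*, 0.18 in *set1Δ*, 0.32 with *SET1* overexpression and 0.34 with *SET1-G990E* overexpression, all under the fold limit.

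In the nucleoplasm the Rix1-Ipi1-Ipi3 complex, the GTPases *NOG2* and *NUG1*, the AAA ATPases *RIX7* and *MDN1*, and *RSA4*, on which Mdn1 pulls, prepare the particle for export. Of these 9 genes 7 rose in *jhd2Δ*, 4 in *set1Δ*, 4 with *SET1* and 6 with *SET1-G990E* overexpression. *IPI1* (YHR085W, chromosome VIII, 276764 to 277768, + strand) rose most in *jhd2Δ*, with 97.7, 105 and 104 in WT and 313, 259 and 260.1 in *jhd2Δ*, 192, 136 and 163 in *set1Δ*, 201, 218 and 242 with *SET1* overexpression and 263, 273 and 226 with *SET1-G990E* overexpression. Its log2 fold change was 1.44 ± 0.124 in *jhd2Δ* (edgeR adjusted p = 4.96e-08) and 0.68 ± 0.135 in *set1Δ* (edgeR adjusted p = 0.0006), where the call was lost without *set1Δ* culture 1 (0.55). *IPI3* rose in all 4 strains, and *RIX1* had 663, 637 and 618 in WT, 1226, 1121 and 1091 in *jhd2Δ* and 779, 659 and 734 in *set1Δ*. The lowest *set1Δ* culture of *RIX1* lay within the WT range and the gene was not called there (0.18), although it rose by 0.84 in *jhd2Δ*. *RSA4* (YCR072C, chromosome III, 240805 to 242352, - strand) had 266, 242 and 276 in WT and led the step in *set1Δ* with 497, 409 and 481 (log2 fold change 0.82 ± 0.0996, edgeR adjusted p = 4.74e-06), having 646, 562 and 629 in *jhd2Δ*. *MDN1* (YLR106C, chromosome XII, 349006 to 363738, - strand), whose product is the longest protein of yeast, had 8808, 10069.6 and 9303 in WT and 8984, 12012 and 10759.8 in *jhd2Δ*, 9829, 9437 and 10199 in *set1Δ*, 9365, 9532 and 8063 with *SET1* overexpression and 7654, 9093 and 10055 with *SET1-G990E* overexpression. The groups overlapped throughout, its log2 fold changes ran from -0.072 to 0.17, and those of *NUG1* from -0.036 to 0.27.

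Export and cytoplasmic maturation need the export factors *ARX1*, *ALB1*, *NMD3* and *RRP12*, the P0 placeholder *MRT4*, the GTPase *LSG1*, which frees Nmd3, and *REI1*, which frees Arx1 and Alb1 in the cytoplasm. Of these 7 genes 4 rose in *jhd2Δ*, 1 in *set1Δ*, 3 with *SET1* and 4 with *SET1-G990E* overexpression. *REI1* (YBR267W, chromosome II, 739841 to 741022, + strand), which *SLM6* overlaps on the other strand, rose most of the 60 members in *jhd2Δ* and with both *SET1* alleles, with 179.5, 164 and 186 in WT and 724, 481 and 647 in *jhd2Δ*, 414, 300.2 and 373 in *set1Δ*, 399, 449 and 517 with *SET1* overexpression and 597, 686 and 594 with *SET1-G990E* overexpression. Every mutant culture was above every WT culture, and the log2 fold change was 1.81 ± 0.145 in *jhd2Δ* (edgeR adjusted p = 2.17e-08), 1.04 ± 0.152 in *set1Δ* (edgeR adjusted p = 3.34e-05), 1.37 ± 0.149 with *SET1* and 1.83 ± 0.144 with *SET1-G990E* overexpression. The clients of its product, *ARX1* and *ALB1*, rose less, by 1.05 and 0.88 in *jhd2Δ*. *LSG1* had the smallest mean absolute change of the 7, from 1446, 1343 and 1299 in WT to 1716, 1742 and 1704 in *jhd2Δ* and 1579, 1513 and 1485 in *set1Δ*. Its mutant cultures all lay above WT, by 0.16 to 0.39 on the log2 scale, under the fold limit.

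Read culture by culture, the members' mean level was higher in each mutant culture than in each WT culture. Over all 60, the mean log2 level (TMM-normalized CPM plus 1) minus the WT mean was 0.053, -0.001 and -0.052 in the WT cultures 1, 2 and 3. It was 0.80, 0.73 and 0.79 in *jhd2Δ* and 0.56, 0.34 and 0.49 in *set1Δ*. The overexpression cultures had 0.51, 0.55 and 0.59 with *SET1* and 0.70, 0.80 and 0.73 with *SET1-G990E*. *jhd2Δ* and *set1Δ* did not overlap, nor did the 2 overexpression strains, while *set1Δ* and *SET1* overexpression did. The widest spread was in *set1Δ* (SD 0.114, against 0.036 to 0.053 in the other strains), where culture 2 was low: it held the lowest of the 3 values for 50 of the 60 members, and culture 1 the highest for 48. In the WT cultures, 1 had the highest value for 38 members and 3 the lowest for 34.

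The nucleoplasmic genes had the highest mean of the 5 steps in *jhd2Δ* and the widest spread between cultures in *set1Δ*. The 9 genes averaged 0.93, 0.85 and 0.90 in *jhd2Δ*, above the 0.72, 0.66 and 0.71 of the early particles and the 0.63, 0.62 and 0.66 of the 27SB step. In *set1Δ* the same 9 genes averaged 0.54, 0.25 and 0.44, and culture 2 there was the lowest of all step values in the 12 mutant cultures. The A3 and scaffold genes averaged 0.85, 0.80 and 0.86 in *jhd2Δ* and 0.62, 0.40 and 0.58 in *set1Δ*, and the export and cytoplasmic genes 0.91, 0.74 and 0.82 and 0.59, 0.33 and 0.47. No mutant culture came down to the WT range in any step.

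**Figure D4:**
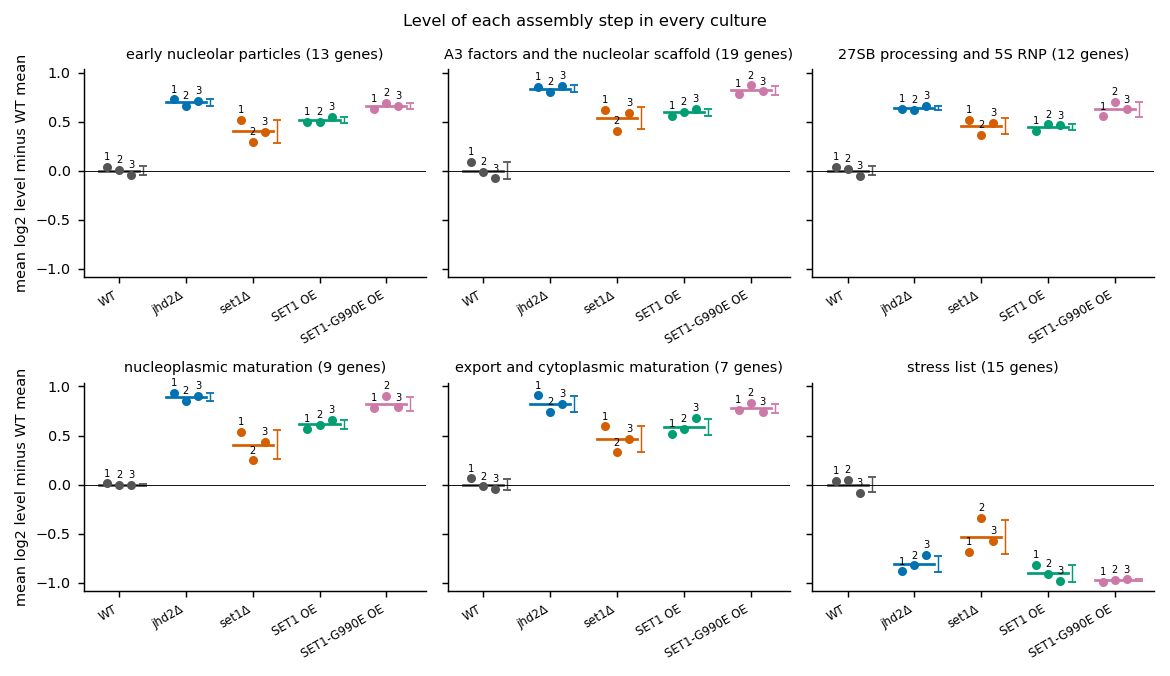
Mean log2 level of each assembly step's genes minus the WT mean (y axis) in every culture (points, numbered by culture), with the strain mean (line) and SD (bar beside it); the last panel shows a list of 15 stress genes on the same scale. Every mutant culture lies above 0 in the 5 assembly steps and below 0 in the stress list, and *set1Δ* culture 2 lies nearest to WT among the *set1Δ* cultures in all 6 panels.

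A list of 15 stress genes moved the other way in the same cultures. The paper had already reported genes of glycogen and energy-reserve metabolism as lower in both deletion strains from these data. The list holds genes of this kind, such as *GPH1* and *GSY2*, and was chosen with earlier results known. Its fall is therefore a description and no independent readout of growth state. Of all features tested, 5.27%, 2.71%, 3.88% and 5.32% were called lower in *jhd2Δ*, *set1Δ*, *SET1* and *SET1-G990E* overexpression. In *jhd2Δ* 13 of the 15 stress genes were lower and 0 higher by edgeR, and in *set1Δ* 4 were lower. With *SET1* and *SET1-G990E* overexpression 11 of the stress genes were lower in each. Their mean log2 level was -0.68, -0.34 and -0.57 in the *set1Δ* cultures, -0.89, -0.82 and -0.72 in *jhd2Δ* and -0.99, -0.97 and -0.97 with *SET1-G990E* overexpression. Their summed level was 19979 to 22108 CPM in WT, 10819.8 to 12205 in *jhd2Δ*, 13489 to 16788 in *set1Δ*, 11749 to 12648 with *SET1* and 10895 to 11325 with *SET1-G990E* overexpression, with none of the 15 at 0. The members summed to 9652 to 10336 CPM in WT, 14815 to 15179 in *jhd2Δ*, 11705 to 13489.6 in *set1Δ*, 13057 to 13392 with *SET1* and 14061 to 14889 with *SET1-G990E* overexpression. Within *set1Δ*, culture 2 had both the lowest member sum and the highest stress sum. The part of growth state in the members' change was not tested.

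The 2 deletion strains were then compared directly. Between *set1Δ* and *jhd2Δ* 7 members were lower in *set1Δ*, where 3.29% of all features were, and 0 were higher by edgeR, by DESeq2 or at an unadjusted p under 0.05, where 5.02% of all features were called higher. The 7 were *NOG2*, *REI1*, *IPI1*, *RIX1*, *MAK16*, *SSF1* and *RLP7*, of which 3 (*NOG2*, *IPI1* and *RIX1*) belong to the nucleoplasmic step, 3 (*MAK16*, *SSF1* and *RLP7*) to the A3 and scaffold step and 1 (*REI1*) to the cytoplasmic step. *NOG2* (YNR053C, chromosome XIV, 721120 to 723112, - strand) had 1135, 790.4 and 1016 in *set1Δ* and 1904, 1591 and 1789 in *jhd2Δ*, with 692, 661 and 633 in WT. It differed most, with a log2 difference (*set1Δ* minus *jhd2Δ*) of -0.84 ± 0.0984 (edgeR adjusted p = 3.3e-06), and its intron holds the small nucleolar RNA gene snR191. The difference was -0.77 ± 0.135 for *REI1* (edgeR adjusted p = 0.000222), -0.76 ± 0.118 for *IPI1* (edgeR adjusted p = 6.93e-05) and -0.66 ± 0.068 for *RIX1* (edgeR adjusted p = 8.58e-07). For each of these 4 the 3 *set1Δ* cultures lay below the 3 *jhd2Δ* cultures. The count rested in part on *set1Δ* culture 2: without it 4 members were called, and these were *IPI1*, *NOG2*, *REI1* and *RIX1*.

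On the edgeR adjusted p alone, at any fold, 43 members were lower in *set1Δ* than in *jhd2Δ*, beside 1093 of the 5619 features tested. At an unadjusted p under 0.05, 45 members were lower, most of them below the fold limit. The log2 difference was negative for 55 of the 60 and its median was -0.31, while the median over all features was -0.002. The 5 members not below 0 were *RRS1* (0.13 ± 0.0868, edgeR adjusted p = 0.256), *NSA2* (0.11), *DBP6* (0.029), *NMD3* (0.029) and *DBP9* (0.0007). *RRS1* had 1074, 841 and 974 in *set1Δ* and 955, 859 and 831 in *jhd2Δ*, which overlap.

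Between the 2 overexpression strains a single member was called. *MAK16* was higher with *SET1-G990E* than with *SET1* overexpression by 0.63 ± 0.135 (edgeR adjusted p = 0.0243), with 657, 941 and 692 against 435, 524 and 522, where 0.196% of all features were called higher and 0.0356% lower. The call was lost without *SET1* overexpression culture 1, 2 or 3 or *SET1-G990E* culture 2. No member was called lower by edgeR or DESeq2, and 0 were lower at an unadjusted p under 0.05. The difference was above 0 for 58 of the 60 members, with a median of 0.19 beside 0.001 over all features, and the 2 below 0 were *NOP7* (-0.0048) and *MDN1* (-0.0084).

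Levels between genes were compared as normalized counts per kb of the gene length in the files. In WT the members ran from 86.5 per kb for *DBP7* to 4010.2 for *NOP7*, with a median of 622. The ratio of highest to lowest was 46.4 in WT, 19.8 in *jhd2Δ*, 29.0 in *set1Δ*, 26.8 with *SET1* and 20.8 with *SET1-G990E* overexpression, with *DBP7* lowest and *NOP7* highest in every strain. The ratio of the upper to the lower quartile of the members also narrowed, from 2.65 in WT to 2.14, 2.33, 2.26 and 2.13. Among the 30 members with the lower mean level over all libraries (167 to 898 per kb), 24 rose in *jhd2Δ*, 14 in *set1Δ*, 15 with *SET1* and 24 with *SET1-G990E* overexpression, and among the 30 with the higher level 18, 6, 7 and 16 did. Across the 60 genes, which share all libraries and are not independent, Pearson's r between log2 level and log2 fold change was -0.52, -0.38, -0.50 and -0.52, and over all 5619 features it was -0.066, -0.18, -0.041 and -0.085.

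Genes whose products work in a shared complex did not always have the same level, and in some complexes their ratios differed between strains. The ranges of *NOC2* and *MAK21* overlapped in every strain, at 832.3 to 937.9 and 908.4 to 997.6 per kb in WT. In *jhd2Δ* they were 1463.2 to 1542.6 and 1492.6 to 1560.1. *NOC3* was lower, at 386.0 to 415.5 per kb in WT. In WT *NOP7* had 3668 to 4447 per kb, *ERB1* 528 to 593 and *YTM1* 405 to 465. The means of the latter pair were in the other order in *jhd2Δ* (*YTM1* 943 to 1044, *ERB1* 823 to 958), with *SET1* overexpression (735.8 to 798 and 717 to 824) and with *SET1-G990E* overexpression (896.5 to 973 and 752 to 841), and the ranges were apart only in the last. In *set1Δ* *ERB1* kept the higher mean, in overlapping ranges (712 to 802 against 653 to 795 for *YTM1*). In the Rix1 complex, WT levels were 269.8 to 289.3 per kb for *RIX1*, 97.2 to 104.6 for *IPI1* and 288.4 to 310.3 for *IPI3*. The *RIX1* and *IPI3* ranges, which overlap in WT, were apart in all 4 mutants, at 475.8 to 534.9 and 679.9 to 795.4 per kb in *jhd2Δ*, 287.4 to 340.0 and 414.5 to 579.0 in *set1Δ*, 389.9 to 437.8 and 579.4 to 618.0 with *SET1* overexpression, and 465.2 to 484.1 and 665.3 to 739.0 with *SET1-G990E* overexpression. In the *RPF2*-*RRS1* pair *RPF2* was higher in WT, at 1231 to 1376 per kb against 712 to 803 for *RRS1*, and in *set1Δ* the ranges overlapped, at 1403 to 1487 and 1374 to 1754. *REI1*, at 139 to 157 per kb in WT, reached 407 to 612 in *jhd2Δ*, below *ARX1* at 1129.6 to 1227. These are levels of RNA, and protein was not measured in these files.

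Antisense RNA over the members was scarce. Of the 60 genes 52 had a row in the antisense table, 8 were set apart by the authors with fewer than 10 counts, and 13 passed the filter on low counts. Of all 5122 antisense features 2640 passed it. Of the 13, 4 were called higher than WT in at least 1 strain, beside 295 of the 2640 features tested. *NOP8* was the most abundant of the 13 in WT. Over *NOP8* (YOL144W, chromosome XV, 53098 to 54552, + strand) normalized antisense counts were 289, 270.0 and 318 in WT and 288, 225 and 264 in *jhd2Δ*. They were 419, 449 and 493 in *set1Δ*, all above WT, and 128, 117 and 87.6 with *SET1* and 96.4, 103 and 119.7 with *SET1-G990E* overexpression, all below it. The antisense log2 fold change was 0.63 ± 0.109 in *set1Δ* (edgeR adjusted p = 2.65e-06), -1.40 ± 0.126 with *SET1* (edgeR adjusted p = 6.41e-18) and -1.46 ± 0.123 with *SET1-G990E* overexpression (edgeR adjusted p = 7.6e-20). In *jhd2Δ* it was -0.18 ± 0.112 (edgeR adjusted p = 0.4), and *set1Δ* exceeded *jhd2Δ* by 0.81 ± 0.111 (edgeR adjusted p = 3.71e-09). The rise in *set1Δ* lost its call without WT culture 2 (0.57) or *set1Δ* culture 3 (0.57), and scaling by the sense library sizes, which lowers the median of all antisense features in *set1Δ* to -0.27, left 0.38.

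The sense transcript of *NOP8* rose in all 4 strains whichever way its antisense RNA went. Sense counts were 214, 198 and 184 in WT and 404, 381 and 428 in *jhd2Δ*, 392, 278 and 339.5 in *set1Δ*, 329, 329 and 321 with *SET1* overexpression and 358, 424 and 409 with *SET1-G990E* overexpression, with no overlap with WT. The gene downstream, *RIB4* of riboflavin synthesis, which was looked at after the *NOP8* values were seen, ends 42 bases from *NOP8* and is read toward it. Its sense counts moved with the *NOP8* antisense: 1409, 1307 and 1368 in WT, 1352, 1263 and 1221 in *jhd2Δ*, 2088, 1986 and 2079.9 in *set1Δ*, 620.5, 546 and 586 with *SET1* and 596, 569.6 and 516 with *SET1-G990E* overexpression. *RIB4* was called higher in *set1Δ* (0.59) and lower in the overexpression strains (-1.22 and -1.28), as the antisense over *NOP8* was. The part of *RIB4* in the *NOP8* antisense was not tested. The divergent neighbour upstream of *NOP8*, *CTR9*, had log2 fold changes between -0.012 and 0.066 and was called in none.

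**Figure D5:**
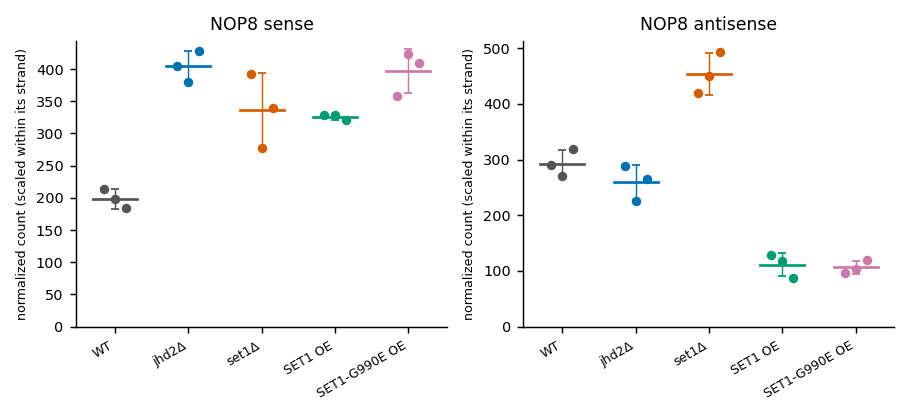
Normalized counts (y axis, from 0, scaled within each strand's own table) of the sense and the antisense transcript of *NOP8* in the 3 cultures of each strain (points), with the mean (line) and SD (bar). Sense counts are higher than in WT in all 12 mutant cultures, while antisense counts are higher in *set1Δ* and lower in both overexpression strains.

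The other antisense calls rested on few reads. *ALB1* antisense rose in *set1Δ*, from 5.92, 7.25 and 8.12 in WT to 20.02, 12.8 and 16.1 (log2 fold change 1.18 ± 0.386, edgeR adjusted p = 0.0245). With *NOP8* it made 2 members higher in *set1Δ*, where 7.05% of all antisense features were. *RRP1* antisense rose with *SET1* overexpression alone, from 40.5, 32.6 and 41.5 to 55.7, 63.9 and 60.01 (0.65 ± 0.186, edgeR adjusted p = 0.0236), 1 of 13 beside 1.17%, and *NOP8* was the 1 member lower there, beside 2.35%. *DRS1* antisense rose with *SET1-G990E* overexpression, from 4.94, 5.44 and 3.61 to 14.1, 13.01 and 7.15 (1.29 ± 0.431, edgeR adjusted p = 0.0397), 1 of 13 beside 3.56%, and *NOP8* was again the 1 member lower, beside 3.18%. The *ALB1* and *RRP1* calls were lost when DESeq2 replaced edgeR, and DESeq2 gave no adjusted p for *DRS1*. *ALB1* lost its call without WT culture 1 or 2 or *set1Δ* culture 1 or 3, *RRP1* without WT culture 2 or *SET1* overexpression culture 2 or 3, and *DRS1* without any 1 of the WT cultures or *SET1-G990E* culture 1 or 2. In *jhd2Δ* no member was called on the antisense strand by edgeR or DESeq2, and 1 was higher and 1 lower at an unadjusted p under 0.05.

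Between *set1Δ* and *jhd2Δ* 2 members had more antisense RNA in *set1Δ*, where 7.65% of all antisense features did: *NOP8*, above, and *RPF2*, which was named after its value was seen. *RPF2* antisense was 12.01, 12.8 and 11.1 in *set1Δ*, 1.04, 5.0 and 1.0 in *jhd2Δ* and 8.89, 5.44 and 9.02 in WT, and the 2 deletion strains differed by 2.28 ± 0.608 (edgeR adjusted p = 0.00386). The convergent gene *MTD1*, which encodes a folate enzyme and was likewise looked at afterwards, ends 148 bases from *RPF2*. Its sense counts were 3057, 3399 and 2928 in *set1Δ*, 980.3, 1293 and 1131 in *jhd2Δ* and 2089, 1944 and 1909 in WT, higher in *set1Δ* than in *jhd2Δ* by 1.46, and its part in the *RPF2* antisense was not tested.

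Related gene lists give the setting of these values. Of all features tested, 6.94%, 5.87%, 3.81% and 6.66% were called higher in *jhd2Δ*, *set1Δ*, *SET1* and *SET1-G990E* overexpression. Of 26 other large-subunit assembly genes, 10 rose in *jhd2Δ*, 5 in *set1Δ*, 7 with *SET1* and 10 with *SET1-G990E* overexpression, led in *jhd2Δ* by *YDL063C* (1.43), *PUF6* (1.05), *CGR1* (0.94) and *ECM1* (0.90). Of 71 small-subunit assembly genes 53, 26, 36 and 48 rose, led in *jhd2Δ* by the helicase genes *DBP8* (1.93) and *DHR2* (1.75), with *LCP5* (1.76) and *UTP6* (1.54). Of these 71, 15 were lower in *set1Δ* than in *jhd2Δ*, where 3.29% of all features were. Their median log2 fold changes of 0.81, 0.53, 0.60 and 0.81 stand beside 0.76, 0.50, 0.52 and 0.70 for the 60 members. Of a list of 138 cytosolic ribosomal protein genes, 4, 1, 3 and 3 rose and 1, *RPS14B*, fell in *set1Δ* (-0.59), with medians between 0.051 and 0.12. The list also holds *RPP1*, which encodes a subunit of RNase P and not a ribosomal protein. *RPP1* was the 1 gene called higher in *set1Δ* (0.67). It was also among those called higher in *jhd2Δ* (0.85) and with *SET1-G990E* overexpression (0.66). These ribosomal protein counts were not above the shares of all features, of which 2.71% fell in *set1Δ*.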

How the data were processed

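Strand-specific, rRNA-depleted RNA-seq of 15 yeast cultures was aligned by the authors with Novoalign 2.8.1 to sacCer3 and counted with USeq. The deposited values are raw counts per gene, sense and antisense separately, with the gene length in bp. The authors' fold changes and p-values were not used. Features the authors listed as having under 10 counts in a table are not in it.

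Counts were tested with edgeR 4.0.16 (R 4.3.3): TMM scaling within each strand's table, a filter on low counts (filterByExpr, minimum count 10), 1 mean per strain over all 15 libraries, and Benjamini-Hochberg adjustment over all features tested. The sense and antisense tests kept 5619 and 2640 features, and the biological coefficients of variation were 0.0673 and 0.0799. Levels by culture are means of log2(CPM + 1). The fits were checked on simulated counts. Deviations from the strain means correlated between same-numbered cultures in all 3 pairs of WT with *set1Δ* (r 0.38, 0.16 and 0.34). The same held for *jhd2Δ* with *set1Δ* (0.26, 0.16 and 0.13). The labels state no pairing, and differently numbered cultures reached an r of 0.34. Whether the numbers pair the cultures was not tested. In WT with *jhd2Δ* (0.15, 0.28 and 0.091) and the comparisons with overexpression at least 1 pair was under 0.1. Alternatives included DESeq2 1.42.0, other scalings and filters, glmTreat and leaving out each culture.

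Values in every library are given, in each step, for the member with the largest log2 fold change in *jhd2Δ*, the one with the largest in *set1Δ* and the one with the smallest mean absolute change. They are also given for up to 4 members called in each direct comparison and for every member called on the antisense strand. Other genes come from fixed lists, up to 4 of each. The members and lists were chosen with earlier results of these data known.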

Additional observations from a re-analysis of the deposited data

How the results depend on the processing

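Directions held for most values under most settings, and the counts moved chiefly with the fold test. With glmTreat, which tests against 1.5-fold, 27, 5, 8 and 25 members were higher in *jhd2Δ*, *set1Δ*, *SET1* and *SET1-G990E* overexpression, 0 were lower in *set1Δ* than in *jhd2Δ* and 0 differed between the overexpression strains. Leaving out 1 culture gave 41 to 45, 16 to 27, 20 to 28 and 39 to 43 higher members, 4 to 10 lower in *set1Δ* than in *jhd2Δ*, and 0 to 1 higher with *SET1-G990E* than with *SET1*. Without *set1Δ* culture 1 the *set1Δ* count was 16, and without culture 2 it was 27. The members' medians were 0.749 to 0.802 in *jhd2Δ*, 0.44 to 0.534 in *set1Δ*, 0.51 to 0.552 with *SET1* and 0.70 to 0.741 with *SET1-G990E* overexpression. Scaling by library size alone gave 0.83 in *jhd2Δ* and 0.576 with *SET1* overexpression.

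On the antisense strand, leaving out 1 culture gave 0 to 1 lower in *jhd2Δ*, 0 to 2 higher in *set1Δ*, 0 to 1 higher in either overexpression strain and 2 to 3 higher in *set1Δ* than in *jhd2Δ*. The 2 calls higher in *set1Δ* became 1 with the stricter filter or DESeq2 and 0 with glmTreat or sense library sizes, and the last gave 2 lower. The call with *SET1* overexpression became 0 with glmTreat or DESeq2. The call with *SET1-G990E* became 0 with either other filter, glmTreat, only the strains compared, or DESeq2, which gave *DRS1* no adjusted p. The 2 calls between the deletion strains became 1 with the stricter filter, glmTreat, only those strains, or DESeq2, and between the overexpression strains 1 was lower when only those were fitted. The cause of these changes was not tested.

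Of 1744 values for single genes, 1694 kept their direction and side of the threshold, 36 lost and 7 gained a call, and 7 changed sign. *MDN1* became 0.008 and 0.009 with *SET1* overexpression without WT culture 2 or *SET1* culture 3, and 0.027 with *SET1-G990E* without its culture 1. *RRP1* antisense became 0.017 and 0.025 in *jhd2Δ* without WT culture 3 or *jhd2Δ* culture 1, and -0.082 and -0.009 with *SET1-G990E* without WT culture 2 or *SET1-G990E* culture 2. None of these 7 was a call. Over all cultures left out in turn, *MDN1* ran from -0.108 to 0.009 and from -0.166 to 0.027 in the overexpression strains, and *RRP1* antisense from -0.158 to 0.025 in *jhd2Δ* and from -0.082 to 0.1 with *SET1-G990E*.

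Same-numbered cultures correlated positively among WT, *jhd2Δ* and *set1Δ*, while each comparison with an overexpression strain held at least 1 negative r. Over all strains same-numbered cultures had r from -0.26 to 0.38 (median 0.13, 30 pairs). Different numbers had a median of -0.036 and a highest r of 0.34. Whether the numbers pair the cultures was not tested. With the culture number as a block, 42, 20, 22 and 41 members were higher, 7 were lower in *set1Δ* than in *jhd2Δ* and 1 differed between the overexpression strains. The block changed no call against WT of a gene given with its values in every library. Antisense depth, at most 106762 counts a library, left 13 members to test.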

Other observations

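Of the 60 members, 30 share their upstream region with a gene read in the opposite direction, at gaps of 192 to 1038 bases (median 311) between the coding starts. Of the 29 such neighbours tested, 6 rose and 2 fell in *jhd2Δ*, 5 rose in *set1Δ*, 3 rose and 1 fell with *SET1* overexpression, and 6 rose and 1 fell with *SET1-G990E* overexpression. Of all features tested, 6.94%, 5.87%, 3.81% and 6.66% were called higher in the 4 strains and 5.27%, 2.71%, 3.88% and 5.32% lower, so that the falls were near the background. The neighbours' median log2 fold changes were 0.23, 0.15, 0.19 and 0.22. The 6 that rose in *jhd2Δ* were *RPC37*, *BMT2*, *RRP3*, *GCD10*, *LCP5* and *DEG1*, of which *RRP3* and *LCP5* are themselves assembly genes of the small subunit, and the 2 that fell were *UBC5* and *TDA1*.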
